A study of Mus musculus with 3 samples.

Results

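*Upk3a*-negative luminal cells are mammary epithelial cells that came out of the inguinal fat pad with its stromal vascular fraction (SVF), and 351 of them were found among 31905 cells. A cell was taken as a member when its barcode held at least 2000 unique molecular identifiers (UMIs, counts of captured mRNA molecules) with at most 10% in mitochondrial genes, at least 1 UMI of *Epcam*, at least 3 of *Krt18*, none of *Upk3a* or *Pdgfra*, and at most 1 of *Krt14*. The cells were thus selected on their measured counts of these genes, so the 5 genes are given as description and were left out of every test. The cells with the same profile and 1 or more *Upk3a* UMIs, 520 in number, served as the comparison and are called *Upk3a*-positive below.

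The study asked how loss of matrix Gla protein (*Mgp*), an extracellular inhibitor of bone morphogenetic proteins (BMPs), changes progenitor cells of adipose tissue. Live CD45-depleted SVF cells of 4-week-old mice were profiled with the 10x Genomics 3′ assay in 3 libraries, 1 per genotype, each pooled from several female and male mice: wild-type, *Mgp*-KO, with *Mgp* deleted in the whole animal (strain B6.129S7-Mgptm1Kry/KbosJ), and Pd-KO, with floxed *Mgp* on both alleles and a *Pdgfra-Cre* transgene (C57BL/6-Tg(Pdgfra-cre)1Clc/J). In the Pd-KO mice, Cre was driven by *Pdgfra*, a gene of which the members by definition held no UMI, and the wild-type library was the control used here for both knockouts. Triplets of values are given in the order wild-type, then *Mgp*-KO, then Pd-KO. With 1 library per genotype there was no replicate, so genotypes were compared without a test, and intervals are exact 95% intervals for counting error alone.

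The mammary epithelium is a bilayer of basal contractile cells around luminal cells that line the ducts. The luminal cells fall into a hormone-sensing lineage, which carries the receptors for estrogen, progesterone and prolactin and signals to its neighbours, and a secretory lineage, marked by the transcription factor *Elf5* and the receptor tyrosine kinase *Kit*, whose alveolar descendants make milk. In the prepubertal and pubertal gland the secretory lineage is present as progenitors, and milk proteins are largely a matter of pregnancy and lactation. *Upk3a* encodes a uroplakin, a membrane protein best known from the lining of the bladder.

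The members numbered 84 of 10511 cells in the wild-type library (0.799%, 95% interval 0.638 to 0.988), 235 of 12575 in the *Mgp*-KO library (1.87%, 1.64 to 2.12) and 32 of 8819 in the Pd-KO library (0.363%, 0.248 to 0.512). They held 1490783, 1795523 and 267571 UMIs, with medians per cell of 16450.5, 7321 and 7039. The wild-type members were thus more than 2 times as deeply sampled as those of both knockouts, and the Pd-KO members were few. The *Upk3a*-negative share of all luminal cells was 33.5% in wild-type (27.7 to 39.7), 45.2% in *Mgp*-KO (40.9 to 49.6) and 32% in Pd-KO (23.0 to 42.1). The *Upk3a*-positive cells were deeper in each library, with medians of 22515, 9393 and 11286 UMIs, and a count of 0 is easier to reach in a shallow cell. Thinned to 2000 UMIs per cell, the share of luminal cells with no *Upk3a* UMI was 46.6%, 56.0% and 43%.

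Among the *Upk3a*-positive cells *Upk3a* had a median of 46 UMIs per cell in wild-type and 15 in each of the knockouts, with interquartile ranges of 12.5 to 123, 4 to 42 and 6 to 39.25. The cells just outside the limit on *Upk3a*, with 1 UMI, numbered 59, and 24 held 2 UMIs. *Upk3a* stood at 42.6, 224 and 21.2 CPM (UMIs per 1000000 UMIs of the class) in barcodes of 10 to 100 UMIs, which hold RNA that was free in the suspension. On the other limits, 6 members held 3 *Krt18* UMIs against 8 cells kept out with 2, 6 members held 1 *Krt14* UMI against 3 cells with 2, and 21 cells were kept out by a single *Pdgfra* UMI. Few cells therefore lay close to the keratin limits, while the *Upk3a* limit passed through a range in which free RNA and depth also count.

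The label luminal held in these cells. *Krt8*, the keratin partner of *Krt18* and not used by the rule, was found in 83 of 84, 233 of 235 and 32 of 32 members, at 2682, 1906 and 2250 CPM. The basal myoepithelial list without *Krt14*, which the rule used, summed over 12 genes to 112, 188 and 179 CPM, against 25417, 24572 and 17885 CPM in the 90 basal cells of the same libraries, which were selected on 3 or more *Krt14* UMIs. *Elf5* and *Csn3*, which mark the secretory lineage, were not shared by all members: *Elf5* was detected in 40, 87 and 10 cells and *Csn3*, the κ-casein gene, in 37, 75 and 10.

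Markers of other cells were low. Genes of the stromal, endothelial, mural, Schwann and leukocyte lists took 0.272%, 0.160% and 0.110% of the members' UMIs, against 4.47%, 4.34% and 6.30% in the cells that were neither luminal nor basal. The leukocyte list stood at 12.1, 1.67 and 0 CPM with *Ptprc* at 0 in each library, and no UMI of the mesothelial genes *Msln*, *Upk3b*, *Wt1* and *Lrrn4*, one of them another uroplakin gene, was found. Of 7 stromal genes 6 were detected at a sum of 2293, 1408 and 747 CPM, led by *Col3a1*, while *Pdgfra* was 0 by the rule. *Col3a1* stood at 1159, 570 and 355 CPM in members and at 7541, 16764 and 33154 CPM in free RNA. No doublet caller was run. Over 1% of their UMIs lay in those lists in 3 wild-type and 10 *Mgp*-KO members, and leaving these cells out is among the alternatives in the closing section. A barcode that a cell of another library also carried was found in 4 members, and no barcode was shared between luminal cells.

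The members were a mixture of both luminal lineages. Each luminal cell was given its UMIs over a list of 26 secretory progenitor genes and over a list of 20 hormone-sensing genes, neither with *Upk3a*, and was called secretory-leaning or hormone-leaning by the larger sum. Of the 351 members, 138 were secretory-leaning (39.3%, 34.2 to 44.6), 211 were hormone-leaning and 2 tied. Of the *Upk3a*-positive cells 12 of 520 were secretory-leaning (2.31%, 1.20 to 4.00). The secretory-leaning share of members was 38 of 84 in wild-type (45.2%), 87 of 235 in *Mgp*-KO (37.0%) and 13 of 32 in Pd-KO (40.6%), with intervals that overlapped. Among cells of at least 5000 UMIs it was 46.2% in wild-type (34.8 to 57.8), 27.4% in *Mgp*-KO (21.1 to 34.4) and 34.6% in Pd-KO (17.2 to 55.7). There the wild-type and *Mgp*-KO intervals did not overlap. That limit kept 36 of 38 secretory-leaning members in wild-type and 51 of 87 in *Mgp*-KO. In *Mgp*-KO the median depth was 5660 UMIs in secretory-leaning and 7595 in hormone-leaning members, against 16774.5 and 15183 in wild-type. The limit thus fell unequally on the leanings, and the part of depth in this difference was not tested. With members thinned to 2000 UMIs each, the shares stayed at 45.2%, 37.0% and 40.6%, with intervals that overlapped. Just outside the *Upk3a* limit, 4 of the 59 cells with 1 UMI and 1 of the 24 cells with 2 UMIs were secretory-leaning. Of the 21 cells kept out by a single *Pdgfra* UMI, 17 were secretory-leaning and 4 hormone-leaning, so that limit removed mainly secretory-leaning cells.

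The sums lay far apart. In secretory-leaning members the secretory list had a median of 173, 135 and 133 UMIs per 10000 UMIs of the cell, and the hormone list 3.88, 4.18 and 4.80. In hormone-leaning members the secretory list had medians of 2.63, 2.24 and 1.46 and the hormone list 95.5, 91.7 and 88.0. The secretory list made up between 25 and 75% of both sums in 13 of the 351 members. The split is a description made on these list genes, and the levels of list genes between the leanings follow from it.

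**Figure D1:**
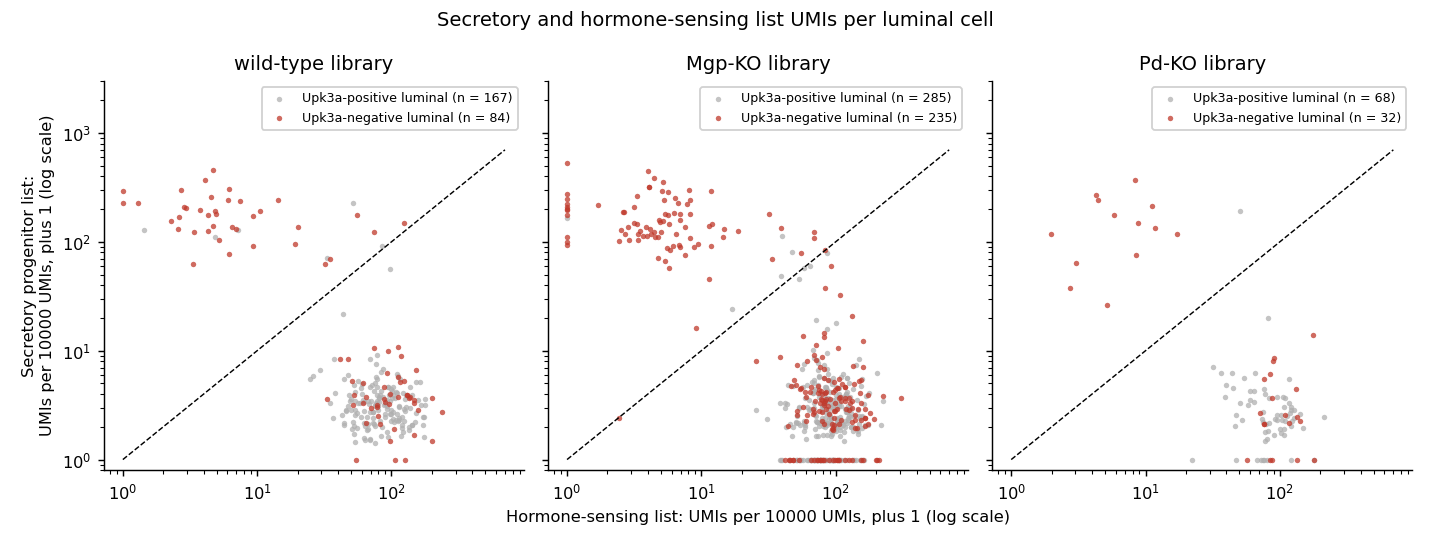
UMIs of the secretory progenitor list (vertical, per 10000 UMIs plus 1, log scale) against those of the hormone-sensing list (horizontal, same scale) in each luminal cell, 1 panel per library; red points are *Upk3a*-negative members, grey points *Upk3a*-positive cells, and the dashed line marks equal sums. Members fall into a cloud above the line, with 138 cells, and a cloud below it, with 211, and 12 of 520 *Upk3a*-positive cells lie above the line.

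The secretory genes were then taken by role, as CPM summed over the cells of a class. *Elf5*, the transcription factor that directs alveolar fate, stood at 126, 130 and 93.4 CPM in members. In *Upk3a*-positive cells it stood at 18.6, 7.83 and 6.23 CPM. Its lowest value among members was thus 5 times the highest among *Upk3a*-positive cells. *Ehf*, another epithelial ETS factor, was at 172, 163 and 191 CPM in members and 29.1, 32.0 and 19.9 CPM in *Upk3a*-positive cells. *Kit*, the stem cell factor receptor, was at 127, 93.0 and 149 CPM against 10.9, 2.94 and 1.25 CPM. Both lay apart from the *Upk3a*-positive cells in each library. *Aldh1a3*, a retinaldehyde dehydrogenase used as a luminal progenitor marker, was at 104, 89.7 and 101 CPM against 9.44, 12.1 and 4.99 CPM. *Hey1*, a Notch target, was at 42.9, 55.7 and 56.1 CPM against 4.47, 4.89 and 2.49 CPM. Values of members and *Upk3a*-positive cells did not overlap in these 5 genes.

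Of the milk protein genes, *Csn3* was at 2141, 776 and 527 CPM in members (intervals 2068 to 2217, 736 to 818 and 444 to 621) and at 157, 57.7 and 88.5 CPM in *Upk3a*-positive cells. It was carried by the secretory-leaning members, of which 36 of 38, 70 of 87 and 10 of 13 held a UMI, and in hormone-leaning members by 1 of 46, 5 of 146 and 0 of 19, the last allowing 20.2 CPM as the upper limit of its interval. As a share of all members, cells with a *Csn3* UMI made up 44.0%, 31.9% and 31.2%, and 42.9%, 28.5% and 31.2% after thinning to 2000 UMIs. In cells outside the mammary classes, where the gene should be absent, the share was 2.42%, 0.509% and 0.149% at median depths of 12660.5, 6364 and 8249.5 UMIs, and *Csn3* in free RNA was 37.4, 32.9 and 3.29 CPM.

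The other caseins and whey genes were close to the limit of detection. *Csn2*, the β-casein gene, had no UMI in any of the 351 members. *Csn1s1* was found in 2, 4 and 2 members, *Csn1s2a* in 3, 1 and 0, and *Wap*, the whey acidic protein gene, in 0, 2 and 0. *Lalba*, the α-lactalbumin gene, which serves lactose synthesis, was found in 7 wild-type, 11 *Mgp*-KO and 1 Pd-KO members, at 15.4, 26.2 and 3.74 CPM. All 8 members with *Csn1s1* and 18 of the 19 with *Lalba* were secretory-leaning.

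Prolactin acts on casein genes through STAT5, whose binding motif is TTCNNNGAA. In RefSeq promoter windows of 300 bases (250 before and 50 after a gene's start, build GRCm38.p6), the motif, which reads the same on both strands, was found in 2726 of 32851 windows (8.30%). Of the 26 secretory list genes 16 had a window, and *Csn1s1*, *Csn1s2a*, *Csn2* and *Glycam1* had a match. The stretches around the match in the caseins that the members hardly used are shown 5′ to 3′ on the gene's strand, with the motif in capitals, since *Csn2* is the casein best known for this motif. *Csn3*, the casein the members did use, had no window among those searched. They lie at chr5:87699500-87699528 on the minus strand for *Csn2*, with the motif ending 84 bases before the start, and at chr5:87666098-87666126 on the plus strand for *Csn1s1*, ending 91 bases before it. The *Csn1s2a* match at chr5:87774460-87774488, plus strand, falls after the annotated start. A match is a description of letters and not of binding.
Csn2: tcacgtagacTTCTTGGAAttgaagggac
Csn1s1: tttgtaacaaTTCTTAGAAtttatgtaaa
Csn1s2a: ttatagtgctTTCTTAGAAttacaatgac

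The secretory list also holds genes of antimicrobial defence. *Wfdc18*, a small secreted protease inhibitor family member, was at 2778, 1734 and 2074 CPM in members and 204, 121 and 69.8 CPM in *Upk3a*-positive cells. *Lcn2*, which binds bacterial siderophores, was at 1620, 1249 and 594 CPM against 194, 71.1 and 47.4 CPM. The iron-binding milk protein lactoferrin was found in fewer cells. Its gene *Ltf* was at 329, 86.9 and 445 CPM against 9.19, 0.652 and 0 CPM, carried by 19, 31 and 5 members. *Cd14*, the co-receptor for lipopolysaccharide, was at 131, 112 and 161 CPM against 16.6, 13.7 and 24.9 CPM. *Wfdc18* and *Lcn2* were not particular to luminal cells, since basal cells of the 3 libraries held 1939, 1432 and 855 CPM of *Wfdc18* and 674, 835 and 434 CPM of *Lcn2*.

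**Figure D2:**
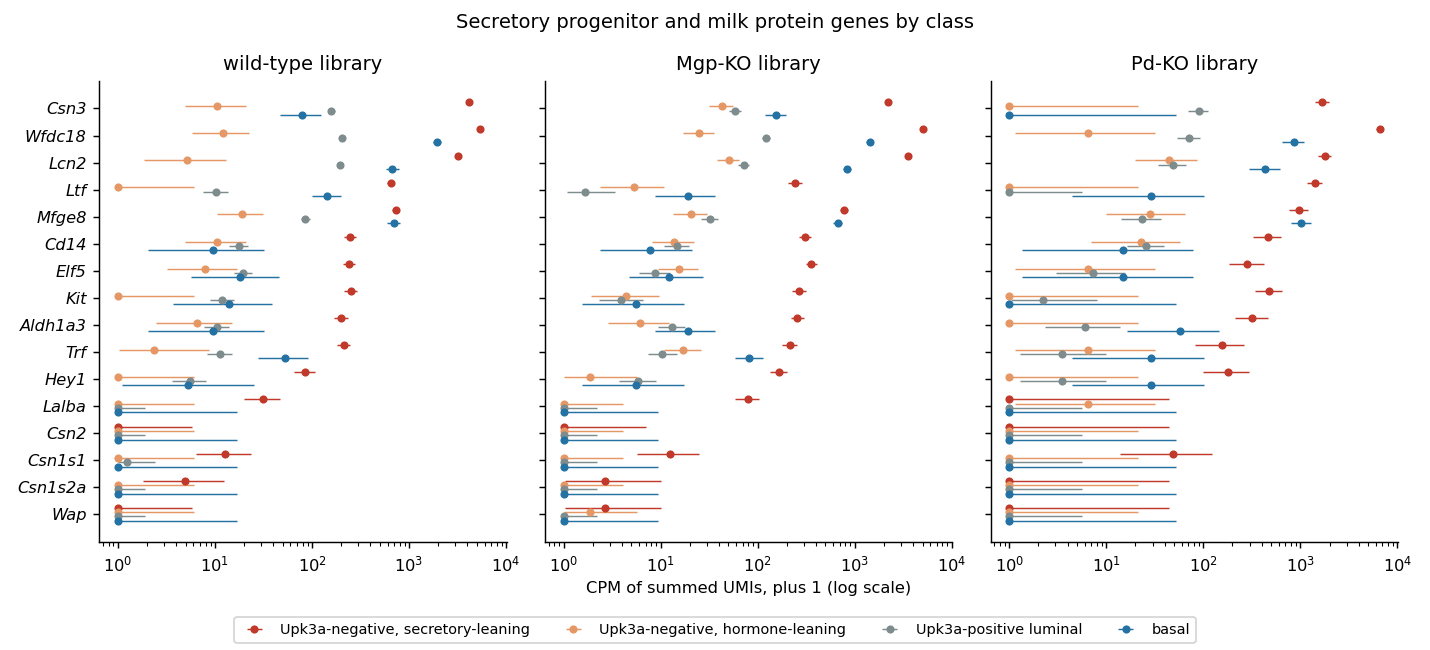
Level of 16 secretory progenitor and milk protein genes (CPM plus 1, log scale, exact 95% Poisson intervals), 1 panel per library, in secretory-leaning and hormone-leaning members, *Upk3a*-positive cells and basal cells. Secretory-leaning members lie highest for *Csn3* (4180, 2221 and 1667 CPM) and *Elf5* (240, 357 and 284 CPM), and *Csn2* is at 0 in every class.

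Members were then compared with *Upk3a*-positive cells over all genes. Raw UMIs were summed per library and class, which gave 6 sums, and edgeR's quasi-likelihood test was run with the library as a block. The 3 libraries serve as replicates of the class difference although each is of another genotype, and the p-values measure only the spread between these libraries. Of 9926 genes tested, 627 were higher in members (6.32%) and 414 lower (4.17%) at an adjusted p under 0.05, with a median log2 difference over all genes of 0.01. Without the *Mgp*-KO library 435 were higher and 194 lower, and DESeq2 called 308 higher and 160 lower. Every such difference is one between a mixed class, with 39.3% secretory-leaning cells, and a class with 2.31%.

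Of the secretory list, 19 of 26 genes were expressed enough to be tested. Of these 17 were higher in members, where 6.32% of all genes were, and none lower, with a median log2 fold change of 3.27. The list was chosen with earlier results of these data known, so the count and the p-values of its genes are description. *Csn3* rose by 3.47 ± 0.19 on the log2 scale (SE; edgeR adjusted p = 8.97e-08), *Elf5* by 3.32 ± 0.23 (edgeR adjusted p = 4.42e-07) and *Wfdc18* by 4.03 ± 0.16 (edgeR adjusted p = 1.39e-08). The folds of the others ran from 1.30 ± 0.36 for *Lbp* to 5.74 ± 0.30 for *Ltf*. *Itga2*, a collagen-binding integrin, at 0.97 ± 0.36 (edgeR adjusted p = 0.112) and *Glycam1* at -0.10 ± 0.33 (edgeR adjusted p = 0.906) did not pass. *Glycam1* was detected in 54 of 84 wild-type members and in none of the knockout members, and at 404 CPM in wild-type free RNA against 57.0 CPM in the wild-type members. Pd-KO free RNA held 462 CPM of it, although no Pd-KO member held a UMI. The list genes too low to be tested were *Lalba*, *Wap*, *Rspo1*, *Cel*, *Csn1s1*, *Csn1s2a* and *Csn2*.

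Of the hormone list, 16 of 20 were tested, 1 was higher, 5 were lower and the median was -0.29. Over all genes 6.32% were higher and 4.17% lower, so the 1 higher gene is near the share of all genes. The receptors were not among those that moved: *Prlr*, the prolactin receptor, differed by 0.10 ± 0.09, *Pgr*, the progesterone receptor, by 0.07 ± 0.11 and *Esr1*, the estrogen receptor, by -0.29 ± 0.13. *Cited1*, a transcriptional coactivator of the estrogen receptor, fell by 1.81 ± 0.11 on the log2 scale (edgeR adjusted p = 2.40e-07), *Wnt5a* by 1.76 ± 0.15 and *Stc2* by 1.00 ± 0.12. *Areg*, the ERBB ligand amphiregulin, fell by 0.76 ± 0.15 and *Foxa1*, a pioneer factor of hormone-sensing cells, by 0.72 ± 0.13. *Ly6a*, the surface antigen Sca-1, was higher by 0.49 ± 0.10. It is also a stromal gene, at 1689, 2370 and 2432 CPM in the cells outside the mammary classes against 865, 696 and 482 CPM in members.

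The 12 called genes with the highest folds, outside any list choice, were *Ltf*, *Cytip*, *Snorc*, *Atp6v1b1*, *Plb1*, *Barx2*, *Kit*, *Kcnn4*, *Pdlim3*, *Wfdc18*, *Mme* and *Fcgbp*, with log2 differences between 3.93 and 5.74. *Snorc*, a transmembrane proteoglycan gene, was at 497, 390 and 576 CPM in members and 41.2, 15.0 and 3.74 CPM in *Upk3a*-positive cells. *Barx2*, a homeobox factor, was at 59.7, 74.6 and 105 CPM against 4.22, 3.91 and 1.25 CPM. *Atp6v1b1*, a subunit of the proton pump of acid-secreting epithelia, and *Kcnn4*, a calcium-activated potassium channel, are both ion transport genes. *Mme*, the peptidase also called CD10, was at 123 CPM in Pd-KO members and 21.5 and 18.4 CPM in wild-type and *Mgp*-KO members.

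The 12 with the lowest folds were *Dcpp3*, *Sv2c*, *Fgb*, *Pir*, *Itih2*, *Ccbe1*, *Crym*, *Il33*, *Grb14*, *Cited1*, *Samd5* and *Mt2*. *Dcpp3*, a gene of secreted demilune cell proteins, had 1 UMI in the 84 wild-type members and none in the knockout members. The *Upk3a*-positive cells held 275, 235 and 29 UMIs of it, at 68.3, 76.6 and 36.2 CPM. Near-identical *Dcpp* copies exist, so its reads may be split among them. *Pir*, which encodes pirin, was at 16.1, 39.5 and 22.4 CPM in members and 238, 260 and 238 CPM in *Upk3a*-positive cells. *Fgb*, the fibrinogen β chain, was at 10.1, 186 and 191 CPM against 1043, 1076 and 686 CPM, so that its members differed among libraries more than its *Upk3a*-positive cells did. *Il33*, an alarmin cytokine, was at 48.3, 46.2 and 93.4 CPM against 190, 211 and 319 CPM, and fell by 2.05 ± 0.13 on the log2 scale.

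**Figure D3:**
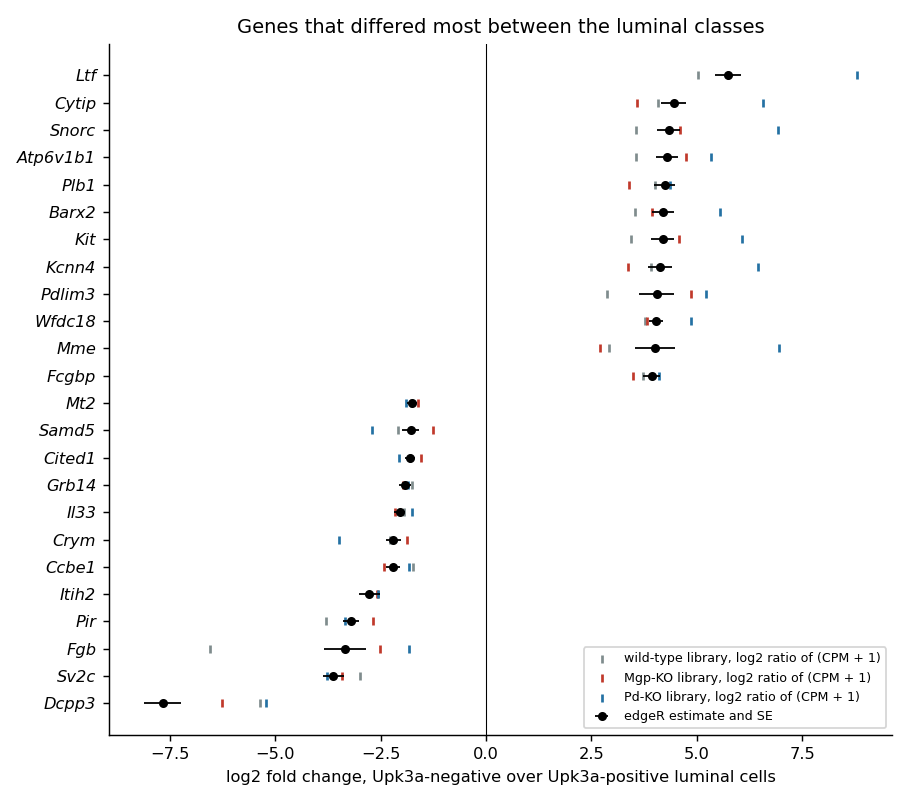
Log2 fold change of members over *Upk3a*-positive cells for the 12 highest and 12 lowest called genes; black points and bars are the edgeR estimate and its SE, and coloured ticks the log2 ratio of CPM plus 1 in each library. All 3 libraries lie on the same side of 0 for each gene, as the choice of genes required, the estimates run from 5.74 (*Ltf*) downwards, and that of *Dcpp3* rests on 1 UMI in members.

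The signalling lists held called genes in both directions, where over all genes 6.32% were higher and 4.17% lower. Of the ERBB ligands and receptors 9 of 10 were tested, with *Egfr* (1.63 ± 0.39), *Erbb3* (0.55 ± 0.14) and *Erbb4* (3.33 ± 0.25) higher and *Areg*, a ligand of EGFR, lower in members, at a list median of 0.02. *Erbb4*, a receptor for neuregulins that acts in alveolar differentiation, was at 4.02, 158 and 202 CPM in members and 0.497, 18.9 and 8.73 CPM in *Upk3a*-positive cells. Of the Notch pathway 8 of 11 were tested, *Notch1* and *Hey1* were higher and *Hes1* lower, and the median was 0.28. Of the BMP and TGFβ pathway, in which MGP acts as an antagonist, 18 of 24 were tested. *Tgfb2* (2.07 ± 0.45), *Tgfb3* (2.71 ± 0.22) and *Id2* (1.91 ± 0.15) were higher, *Id3* and *Tgfbr2* lower, and the median was 0.10. *Mgp* itself was at 18.8 CPM in wild-type members and had no UMI in the members of both knockouts. Wild-type free RNA held 359 CPM of *Mgp* and basal cells 311, so the members' level lay below both.

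*Tgfb3*, a TGFβ ligand, was at 65.7, 51.2 and 41.1 CPM in members and 10.7, 6.52 and 7.48 CPM in *Upk3a*-positive cells. Within members it was higher in secretory-leaning cells, at 122, 116 and 94.6 CPM, than in hormone-leaning cells, at 6.86, 18.7 and 16.4 CPM. *Id2*, a helix-loop-helix inhibitor needed for alveolar development, was at 351, 340 and 236 CPM in secretory-leaning members and 89.2, 84.3 and 27.3 CPM in hormone-leaning members. *Tgfb3* and *Id2* were in neither of the lists that set the leaning, and no test was run between the leanings.

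The remaining lists stand beside the same shares of all genes, 6.32% higher and 4.17% lower. The immune and antimicrobial genes had 8 of 16 tested, with 5 higher, *Cd14*, *Cxcl2*, *Lbp*, *Lcn2* and *Ltf*, and *Il33* lower (median 2.11). *Cd14*, *Lbp*, *Lcn2* and *Ltf* also belong to the secretory list. The milk fat genes had 11 of 15 tested, with *Btn1a1*, *Xdh* and *Plin2*, which build the coat of the milk fat globule, higher and none lower (median 0.44), while *Fasn*, *Acaca*, *Scd1* and the other tested synthesis genes did not pass. Dissociation stress genes, immediate early and heat shock genes that rise during tissue handling, had 10 tested and *Atf3*, *Fos*, *Ier2*, *Jun* and *Junb* lower (median -0.48). Of 13 pan-luminal genes *Prom2* was higher and *Krt7*, *Krt8* and *Krt19* lower, with a median of 0.00. *Lgr5*, a basal and stem cell marker, was higher, with 14, 17 and 16 UMIs in 2, 11 and 4 members, all of them secretory-leaning, and 2 UMIs in the *Upk3a*-positive cells. Among lists of other cell types, *Dcn* of 6 stromal genes, *Mbp* and *Sox10* of 2 Schwann genes and *Sbsn* of 3 keratinocyte genes were higher and *Krt6a* was lower. None of 5 endothelial, 2 mural and 1 adipocyte gene passed. *Sox10* is also a gene of the secretory list, and was at 87.9, 111 and 201 CPM in secretory-leaning members and 0, 0.852 and 0 CPM in hormone-leaning members. The part of stromal and Schwann RNA in these differences was not tested.

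The hormone-leaning members share their leaning with 507 of the 520 *Upk3a*-positive cells. Their levels were set beside that class without a test, because the leaning was made on measured values. A gene was counted when the difference was at least 2-fold in the same direction in each of the 3 libraries. Of 9902 genes with at least 50 UMIs, 51 were higher in hormone-leaning members (0.515%) and 179 lower (1.81%). None of the 16 hormone list genes passed in either direction, at a median log2 ratio of 0.32 against 0.05 over all genes. *Prlr* was at 2795, 3321 and 4721 CPM in hormone-leaning members and 1490, 2266 and 2715 CPM in *Upk3a*-positive cells. *Wnt4*, the paracrine signal downstream of progesterone, was at 359, 301 and 191 CPM against 171, 189 and 153 CPM. *Cited1*, in contrast, was at 1177, 954 and 568 CPM against 2310, 2000 and 1640 CPM. *Prlr*, *Wnt4* and *Cited1* belong to the hormone list that set the leaning, so high levels of them in hormone-leaning members follow in part from the choice of cells. Over all members *Prlr* was at 1623, 2266 and 3296 CPM.

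The cell cycle list separated the hormone-leaning members from the *Upk3a*-positive cells. Its 8 genes summed to 195, 69.0 and 32.8 CPM in hormone-leaning members (intervals 164 to 230, 54.8 to 85.7 and 12 to 71.4) and to 769, 627 and 606 CPM in *Upk3a*-positive cells. Of the 8 genes 7, *Birc5*, *Ccnb1*, *Cdk1*, *Mcm5*, *Mki67*, *Top2a* and *Ube2c*, were at least 2-fold lower in each library, where 1.81% of all genes were. *Top2a*, the topoisomerase of dividing cells, was at 13.7, 6.81 and 5.46 CPM in hormone-leaning members and 141, 113 and 111 CPM in *Upk3a*-positive cells. *Mki67*, the proliferation antigen Ki-67, was at 20.6, 5.11 and 0 CPM against 88.9, 65.9 and 133 CPM. Free RNA held 135, 191 and 93.0 CPM of the list. Secretory-leaning members held 1150, 488 and 177 CPM of it, above the *Upk3a*-positive cells in wild-type and below them in both knockouts. In the test over all members, where 4.17% of all genes were lower, *Cdk1* and *Top2a* fell. The other 6 genes did not pass, with *Mki67* at -0.92 ± 0.33 (edgeR adjusted p = 0.0970). Median depth was 15183, 7595 and 7923 UMIs in hormone-leaning members against 22515, 9393 and 11286 in *Upk3a*-positive cells, and its part in these levels was not tested.

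**Figure D4:**
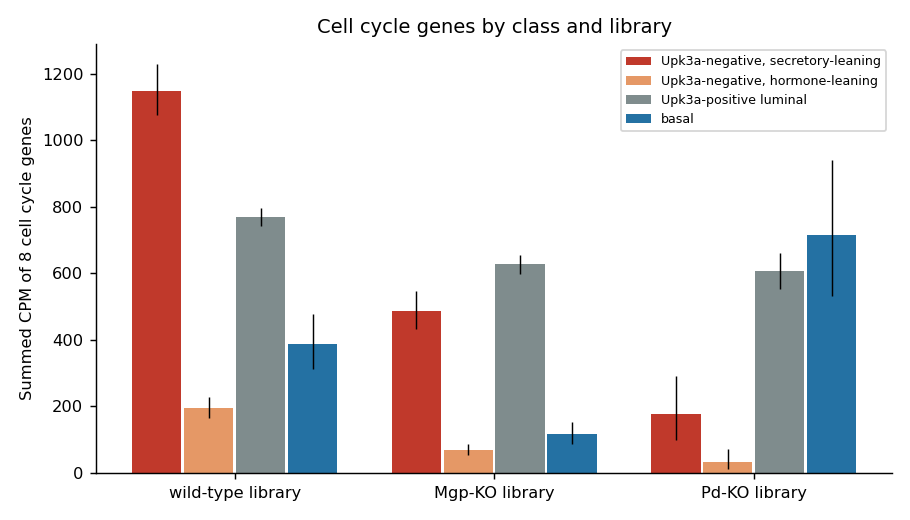
Summed level of the 8 cell cycle genes (bars, CPM, from 0, with exact 95% Poisson intervals) in secretory-leaning and hormone-leaning members, *Upk3a*-positive cells and basal cells of each library. Hormone-leaning members (195, 69.0 and 32.8 CPM) lie under the *Upk3a*-positive cells (769, 627 and 606 CPM) in each library.

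Of the genes higher in hormone-leaning members and with a mean of at least 50 CPM there, the 12 with the highest ratio of UMIs pooled over the libraries were *Plb1*, *Sprr1a*, *Pwwp3b*, *Tmem86a*, *Gas6*, *Cxcl17*, *Ctns*, *Ido1*, *Rgs2*, *Hp*, *Mapre2* and *Hba-a1*, named after their values were seen. Pooling weights the libraries unequally, so this order is not that of the single libraries. *Ctns* had log2 ratios of 1.04, 2.30 and 1.13 by library and *Ido1* of 1.67, 3.49 and 3.75. *Ido1*, which degrades tryptophan, was at 204, 118 and 219 CPM against 64.3, 10.4 and 16.2 CPM. *Hp*, haptoglobin, was at 435, 599 and 628 CPM against 73.8, 248 and 120 CPM. *Gas6*, the vitamin K-dependent ligand of the TAM receptors, was at 96.0, 175 and 98.4 CPM against 24.1, 35.5 and 37.4 CPM. *Gas6* was as high in secretory-leaning members, at 167, 200 and 284 CPM, and over all members it rose by 2.32 ± 0.14 on the log2 scale (edgeR adjusted p = 2.17e-07). It was therefore higher in members of either leaning than in *Upk3a*-positive cells. *Sprr1a*, a squamous envelope gene, had 601 UMIs in the wild-type hormone-leaning cells, all in 9 of 46 cells, against 44 in 12 of 146 *Mgp*-KO cells. *Hba-a1* is a hemoglobin gene of red cells.

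Genotypes were compared within the members, as ratios of CPM between libraries. A gene with at least 50 UMIs over both libraries was counted when the ratio was at least 2-fold and its interval lay past no change. In the *Mgp*-KO library 1038 of 7043 genes were higher than in wild-type (14.7%) and 153 lower (2.17%). In the Pd-KO library 753 of 4532 were higher (16.6%) and 236 lower (5.21%). The median log2 ratio over all genes was 0.17 and 0.05, and under scaling by the median ratio of genes it was 0.07 and -0.19, with 572 higher and 440 lower in Pd-KO. Both comparisons use the same wild-type library, whose files carry an earlier software version than those of the knockouts, so genotype cannot be told apart from library and processing. The dissociation stress list also differed between the libraries, at 5087, 11819 and 6253 CPM in members and 9078, 15315 and 8420 CPM in *Upk3a*-positive cells. Of its 10 genes *Atf3*, *Fos* and *Jun* were higher and *Hspa1b* lower in *Mgp*-KO members (median 0.76), and *Fos* was higher and *Hspa1a* and *Hspa1b* lower in Pd-KO members (median 0.20). Its part in the genotype differences was not tested.

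The ratio followed the length of the gene on the genome. Median log2 ratios ran from -0.11 for genes spanning under 10 kb to 1.73 for genes of 200 kb or more in *Mgp*-KO, and from -0.32 to 2.42 in Pd-KO. Of genes of 200 kb or more with UMIs in both libraries, 77.5% and 92.1% were counted as higher and none as lower. Among genes under 10 kb, 47 were higher and 65 lower in *Mgp*-KO, and 13 were higher and 117 lower in Pd-KO. *Erbb4* was at 4.02 CPM in wild-type and 158 and 202 CPM in the knockouts, and spans 1076 kb. *Nrxn3*, a synaptic adhesion gene of 1612 kb, was at 40.2, 1192 and 1562 CPM, and *Chsy3*, a chondroitin synthase gene of 361 kb, at 4.02, 158 and 221 CPM. *Esr1* at 61.0, 222 and 490 CPM and *Pgr* at 110, 238 and 363 CPM moved the same way. In *Upk3a*-positive cells *Nrxn3* stood at 50.9, 1188 and 1278 CPM, so the difference in this gene was not particular to the members. The ratio by gene length was measured in members only. The study's methods state default parameters and do not name the setting for intronic reads.

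**Figure D5:**
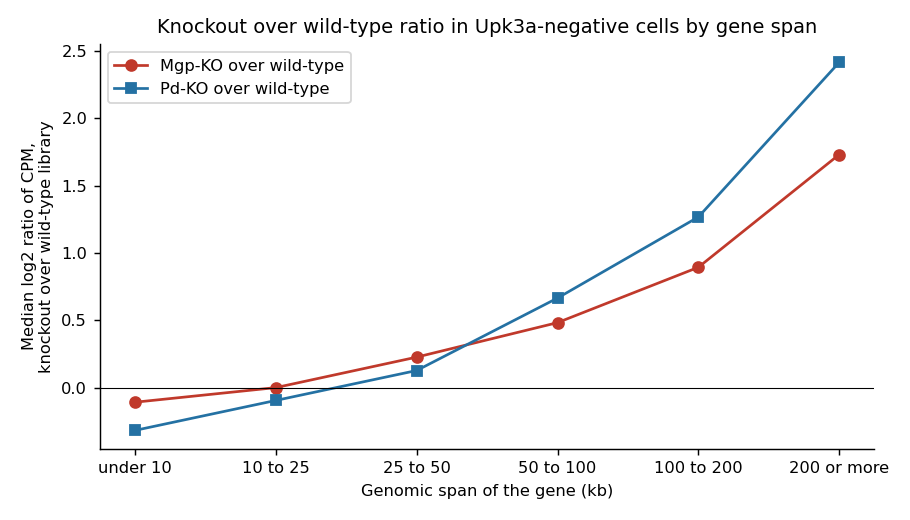
Median log2 ratio of members' CPM, knockout over wild-type, in bins of the gene's span on the genome (kb, GRCm38 annotation), for both knockouts. The median rises in each bin, from -0.11 to 1.73 in *Mgp*-KO and from -0.32 to 2.42 in Pd-KO.

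Of the 10 genes with the highest ratio in *Mgp*-KO, *Fgb* was the one under 10 kb (9.72 kb), at 10.1 CPM in 8 of 84 wild-type members and 186 CPM in 27 of 235 *Mgp*-KO members, a log2 ratio of 4.21 (3.47 to 5.06). *Upk3a*-positive cells of these libraries held 1043 and 1076 CPM of *Fgb*. A count of 0 *Upk3a* UMIs is easier to reach in the shallower *Mgp*-KO cells, and the part of this in the *Fgb* ratio was not tested. Besides *Fgb*, the 10 genes were *Chsy3*, *Erbb4*, *Esrrg*, *Nrxn3*, *Wwox*, *Pde4d*, *Maml2*, *Nr3c2* and *Thsd4*, all of 346 kb or more. In Pd-KO the 10 highest were *Hs6st3*, *Maml2*, *Wwox*, *Chsy3*, *Fhit*, *Erbb4*, *Nr3c2*, *2610307P16Rik*, *Nrxn3* and *Pdzrn3*, of 228 kb or more. *Hs6st3* had no UMI in the wild-type members and 55 in the Pd-KO members. Its log2 ratio was 6.67 with wild-type set at a floor of 3 UMIs, and the lower limit of its interval was 6.33.

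No gene of the secretory list was counted as higher in a knockout. Of the list, 19 genes were measured in *Mgp*-KO, with 0 higher and 4 lower, *Btn1a1*, *Csn3*, *Glycam1* and *Ltf*, where 2.17% of all genes were lower, at a median of -0.28 beside 0.17 over all genes. In Pd-KO 16 were measured, with 0 higher and 5 lower, *Csn3*, *Folr1*, *Glycam1*, *Lcn2* and *Trf*, where 5.21% of all genes were lower, at a median of -0.32 beside 0.05 with genes of 0 UMIs at their bound. Genes under 10 kb with UMIs in both libraries had medians of -0.11 in *Mgp*-KO and -0.32 in Pd-KO. Of these short genes 3.74% and 8.23% were lower, and the part of gene span in the list values was not tested. *Glycam1*, lower in both knockouts, stood in wild-type members below its 404 CPM in wild-type free RNA. In secretory-leaning cells taken alone *Csn3* was at 4180 CPM in wild-type, 2221 in *Mgp*-KO and 1667 in Pd-KO. In the same cells *Elf5* was at 240, 357 and 284 CPM and *Wfdc18* at 5425, 5048 and 6551 CPM, so neither followed *Csn3* downwards in both knockouts. Of the 16 hormone list genes measured in *Mgp*-KO, 3, *Batf*, *Esr1* and *Pgr*, were higher and none lower, where 14.7% of all genes were higher. Of the 14 in Pd-KO, 5, *Esr1*, *Pgr*, *Prlr*, *Prom1* and *Tbx3*, were higher, where 16.6% of all genes were, and *Areg* was lower, at 475 CPM against 1298.

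The cell cycle genes were lower in members of both knockouts. *Birc5*, *Ccnb1*, *Cdk1*, *Mki67*, *Top2a* and *Ube2c* were counted as lower in each, of 8 genes measured in *Mgp*-KO and 7 in Pd-KO, where 2.17% and 5.21% of all genes were lower. They stood at a median of -1.73 in *Mgp*-KO and of -3.40 or lower in Pd-KO, where genes with 0 UMIs stand at their bound. *Ube2c*, a ubiquitin enzyme of mitotic exit, had 267, 64 and 0 UMIs. *Top2a* was found in 15 of 84, 19 of 235 and 1 of 32 members. The list summed to 683, 210 and 78.5 CPM in members, while in *Upk3a*-positive cells it was 769, 627 and 606 CPM. In the cells outside the mammary classes the list was also higher in wild-type, at 226 CPM against 96.5 and 80.8.

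Of the BMP and TGFβ pathway, in which *Mgp* is placed, 15 genes were measured in *Mgp*-KO members, with 4, *Acvr1*, *Bmpr1a*, *Smad1* and *Smad3*, higher beside 14.7% of all genes, none lower, and a median of 0.71 beside 0.17. In Pd-KO 10 were measured, with 3, *Bmpr1a*, *Bmpr2* and *Tgfbr2*, higher beside 16.6% of all genes, *Id2* lower, and a median of 0.34 beside 0.05. *Id2*, a BMP target, was at 223, 171 and 93.4 CPM in members of the 3 libraries. These receptor and Smad ratios share the direction of the longer genes described above.

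Of the genes with the lowest ratios in *Mgp*-KO, *BC018473*, *Sprr1a*, *Defb1*, *Birc5* and *Ube2c* were among the lowest 10 in Pd-KO too, against the same wild-type library. The first 3 of these rested on 9 to 22 wild-type cells. *Defb1*, an antimicrobial β-defensin, had 343 UMIs in 11 wild-type members, 32 in 5 *Mgp*-KO members and 1 in Pd-KO. *BC018473* had 316 UMIs in 22 wild-type members, 19 of them secretory-leaning, and none in free RNA. *Sprr1a* was described above. *Gm42418*, a gene that overlaps ribosomal RNA, was at 17121, 1126 and 2732 CPM in members and 32522, 18133 and 150069 CPM in free RNA. Others among the lowest 10 were *AY036118*, *Cxcl12* and *Lpl* in *Mgp*-KO, and *Hist1h2ap*, *Cenpf*, *Pclaf* and *Cxcl2* in Pd-KO.

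The sex of each cell was called from *Xist* and Y-linked UMIs, as far as these were detected. Members called female, with *Xist* and no Y-linked UMI, made up 61.9%, 88.5% and 81.2% of members, and 15, 7 and 3 members were called male. UMIs of both kinds were held by 6, 4 and 1 members and of neither kind by 11, 16 and 2, and these were left without a call. Of all cells, 35.1%, 60.6% and 32.5% were called female. The wild-type members thus had the largest share called male, 17.9% against 2.98% and 9.38%. Among wild-type members called male 8 were secretory-leaning and 7 hormone-leaning. Sex mix and genotype cannot be told apart beyond restricting the comparison to female cells, as was done among the alternatives.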

How the data were processed

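The authors aligned reads of 3 libraries with 10x Genomics Cell Ranger and deposited unfiltered matrices of whole-number UMI counts per gene and barcode. The study's methods give Cell Ranger 6.1.1 and mm10, the submitters' processing notes give version 6.1.1 and GRCm39, and the file headers carry 4 for wild-type and 7.1.0 for both knockouts. The methods state default parameters without naming the setting for intronic reads, whose default is not the same in every Cell Ranger version. Every column with sample values was used (0 left out). The members, gene lists and comparisons were chosen with earlier results of these data known.

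Cells were selected by the limits stated with the results, and CPM is scaled by the UMIs of the class over all genes. Class sums were tested with edgeR 4.0.16 (R 4.3.3) quasi-likelihood fits, TMM, filterByExpr and Benjamini-Hochberg adjustment at 0.05, library as a block. DESeq2 1.42.0 was an alternative. The test was also run on counts simulated from the means, library sizes and dispersion of its fit to these data. There it recovered 89 of 100 genes changed by 1 on the log2 scale and called 5 of 9487 unchanged genes. Genotype ratios carry exact conditional binomial intervals, levels exact Poisson and shares Clopper-Pearson intervals, each at 95%, which cover counting error and nothing else (Python 3.11.15, scipy 1.17.1). Named genes were, for the class test, the 12 highest and 12 lowest called genes with at least 50 CPM in the higher class and 1 direction in all libraries, for each knockout the 10 highest and 10 lowest counted genes with at least 100 CPM in either library, and any gene of the lists. Gene spans came from a GRCm38 annotation matched by gene identifier. Promoter windows came from RefSeq, GRCm38.p6. A withheld item is not reported here.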

Additional observations from a re-analysis of the deposited data

How the results depend on the processing

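In the comparison of members with *Upk3a*-positive cells, 1041 genes were called (627 higher, 414 lower), 468 with DESeq2 (308 and 160), and between 629 (without the *Mgp*-KO library, 435 and 194) and 1337 with 1 library left out. Among cells of at least 5000 UMIs 261 were lower, and with every gene of at least 1 UMI 656. Over the alternatives run, 215 results for single named genes kept their direction and side of the threshold, and *Fgb* did not pass with DESeq2 (adjusted p = 0.0621). The *Upk3a*-negative share of luminal cells was 46.6% in wild-type, 56.0% in *Mgp*-KO and 43% in Pd-KO after thinning to 2000 UMIs, and 40.2% in *Mgp*-KO among cells of at least 5000 UMIs. There the secretory-leaning share of *Mgp*-KO members was 27.4% in place of 37.0%, below the interval of the wild-type share of 46.2%. The 5000 UMI limit kept 51 of 87 secretory-leaning members in *Mgp*-KO and 36 of 38 in wild-type. The counted genes were 1191 for *Mgp*-KO and 989 for Pd-KO. They were 741 and 472 in hormone-leaning members, 621 and 452 in secretory-leaning members, where fewer UMIs leave fewer genes to count, and 112 and 130 among genes spanning under 10 kb, while Pd-KO had 1843 with a minimum of 20 UMIs. *Cxcl12* in *Mgp*-KO missed the 2-fold limit in female cells. The alternatives by leaning, by gene span and without members over 1% in other-type markers were chosen after seeing the data. The planned exclusion of cells with 3 or more such UMIs was not run, since it left no wild-type member. No paired analysis was possible because each genotype had 1 library, which applies to the genotypes and not to the class test, where the library was a block. The small number of Pd-KO members limits every value of that library.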

Other observations

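The 12 secretory-leaning cells among the *Upk3a*-positive class, 6, 5 and 1 in the wild-type library, *Mgp*-KO and Pd-KO, differed among themselves in the hormone list. In wild-type 3 of the 6 held 0.438, 3.84 and 6.22 of its UMIs per 10000 and the other 3 held 32.2, 50.5 and 84.0, and in *Mgp*-KO 1 of the 5 held 0 and the other 4 more than the median of secretory-leaning members, up to 46.1. Their medians of the secretory list were 118, 79.8 and 193 UMIs per 10000, against 173, 135 and 133 in secretory-leaning members. Their medians of the hormone list were 19.2, 38.2 and 49.2 UMIs per 10000, against 3.88, 4.18 and 4.80 in secretory-leaning members, the Pd-KO value being that of 1 cell, and their median depth was 36766.5, 13567 and 9758 UMIs against 16774.5, 5660 and 6255. Of the members with 3 *Krt18* UMIs, the lowest count the rule allows, 2 were secretory-leaning and 4 hormone-leaning, and of the cells with 2 UMIs 7 were secretory-leaning and 1 hormone-leaning.

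*Fabp4*, a fatty acid carrier of adipocytes and capillary endothelium, led the adipocyte list in the members, which summed to 356, 113 and 632 CPM. In Pd-KO members the sum was 918 CPM in hormone-leaning cells and 11.8 CPM in secretory-leaning cells, with *Adipoq*, *Plin1* and *Cidec* at 0 in both. Free RNA held 2421, 3859 and 3472 CPM of the list. The endothelial list was at 91.2, 36.8 and 116 CPM in members, with *Pecam1* at 0 in Pd-KO.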
